A study of Mus musculus with 25 samples.

Results

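Foxo1, Klf3, Klf4, Klf6, Klf13, Btg1, Btg2, Tob1, Slfn2 and Pik3ip1 are grouped here as regulators of quiescence, the resting state of lymphocytes, and their RNA levels were compared across thymic invariant natural killer T (iNKT) cells with and without the Hippo pathway kinases Mst1 and Mst2. They are 10 of the 22206 gene-level probe sets (transcript clusters) measured on the array, picked by gene symbol. The rule took the cluster with the highest mean where a symbol had several, and each of the 10 symbols had 1. All 10 read above the median of the negative control probes on all 25 arrays.

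T cells that have not met antigen, and those that have finished dividing, stay small and out of the cell cycle through an active programme. In that programme FOXO and Krüppel-like (KLF) transcription factors sustain resting-state genes, BTG and TOB proteins bring the CCR4-NOT deadenylase to mRNAs, and inhibitors of PI3K such as Pik3ip1 limit the AKT signal that would send Foxo1 out of the nucleus. iNKT cells recognise lipids presented by CD1d, divide strongly early in the thymus and then become resting, NK1.1-positive effector cells. Mst1, encoded by Stk4, is a core Hippo kinase that in lymphocytes also acts on FOXO proteins, and Mst2, encoded by Stk3, is its close relative.

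The cells came from thymi of C57BL/6 mice and were sorted as TCRβ-positive, CD24-negative cells that bind the PBS57-loaded CD1d tetramer, after a step with CD8 microbeads. Stage 3 (S3) cells were CD44-positive and NK1.1-positive. The earlier sample, S1_S2, combined NK1.1-negative cells of stage 1 (CD44-negative) and stage 2 (CD44-positive), in shares the labels do not give. At stage 3 there were 5 arrays of Mst1KO cells, which lack Mst1, 1 array of dKOMst cells, which lack Mst1 and Mst2, and 7 arrays of WT cells. At S1_S2 there were 4 Mst1KO, 2 dKOMst and 6 WT arrays. The sources used here do not give how or in which cells the genes were deleted, or the ages of the mice. Nor do they say whether cells of several mice were pooled, or whether S1_S2 and S3 arrays share mice. The p-values therefore measure the spread between arrays, which may in part be technical.

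The deposited values are log2 intensities from Clariom S arrays, with array medians between 7.28 and 7.39, so the number of arrays and not a read depth limits the precision. The sample numbers in the titles run first through Mst1KO and WT arrays and then through dKOMst and further WT arrays. This number block, with 16 and 9 arrays, entered the fit as a term. None of the 10 genes was called for it, where 1362 of all 22206 clusters were called. Signal of Y-linked genes was absent from 4 Mst1KO arrays (replicates 3 and 4 at both stages) and present on all others. The labels do not give the sex of the mice, and the term for mouse sex in later fits marks the absence of this signal. Stk4 RNA was lower in Mst1KO S1_S2 cells than in WT S1_S2 cells (log2 difference −0.92 ± 0.16 SE, limma adjusted p = 0.00592), and was not called lower in Mst1KO S3 cells (−0.35, adjusted p = 0.152) or dKOMst S1_S2 cells (−0.74, adjusted p = 0.0829). Since the deleted part of the gene is not given, this cluster does not check the labels. Stk3 was not analysed here. All 7 measured iNKT and T cell markers, Zbtb16, Cd3e and Klrb1c (NK1.1) among them, were above the negative control median on every array, and of these Klrb1c was lower in dKOMst than in WT S1_S2 cells (−1.18, adjusted p = 0.0198).

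A gene is written as risen or fallen when its limma adjusted p, corrected by Benjamini-Hochberg over all 22206 clusters, was under 0.05. Between stages in WT cells, 7 of the 10 genes rose at S3 and 1 fell, where 16.9% of all clusters were called, 8.18% as risen and 8.75% as fallen. Between stages in Mst1KO cells, 5 rose and 2 fell, where 10.2% of all clusters were called, 5.58% as risen and 4.62% as fallen. Between genotypes the calls were few. Klf6 alone rose in Mst1KO against WT S1_S2 cells, where 0.522% of all clusters were called and 0.329% rose. At stage 3, Klf6 rose and Pik3ip1 fell in Mst1KO against WT cells, where 6.37% of all clusters were called, 3.73% as risen and 2.64% as fallen. Klf6 and Foxo1 rose in dKOMst against WT S1_S2 cells, where 0.923% of all clusters were called and 0.554% rose. Klf4 fell in dKOMst against Mst1KO S1_S2 cells, where 0.171% of all clusters were called and 0.054% fell. In bulk RNA such as this, fewer cells that carry a transcript and less of it per cell cannot be told apart.

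**Figure D1:**
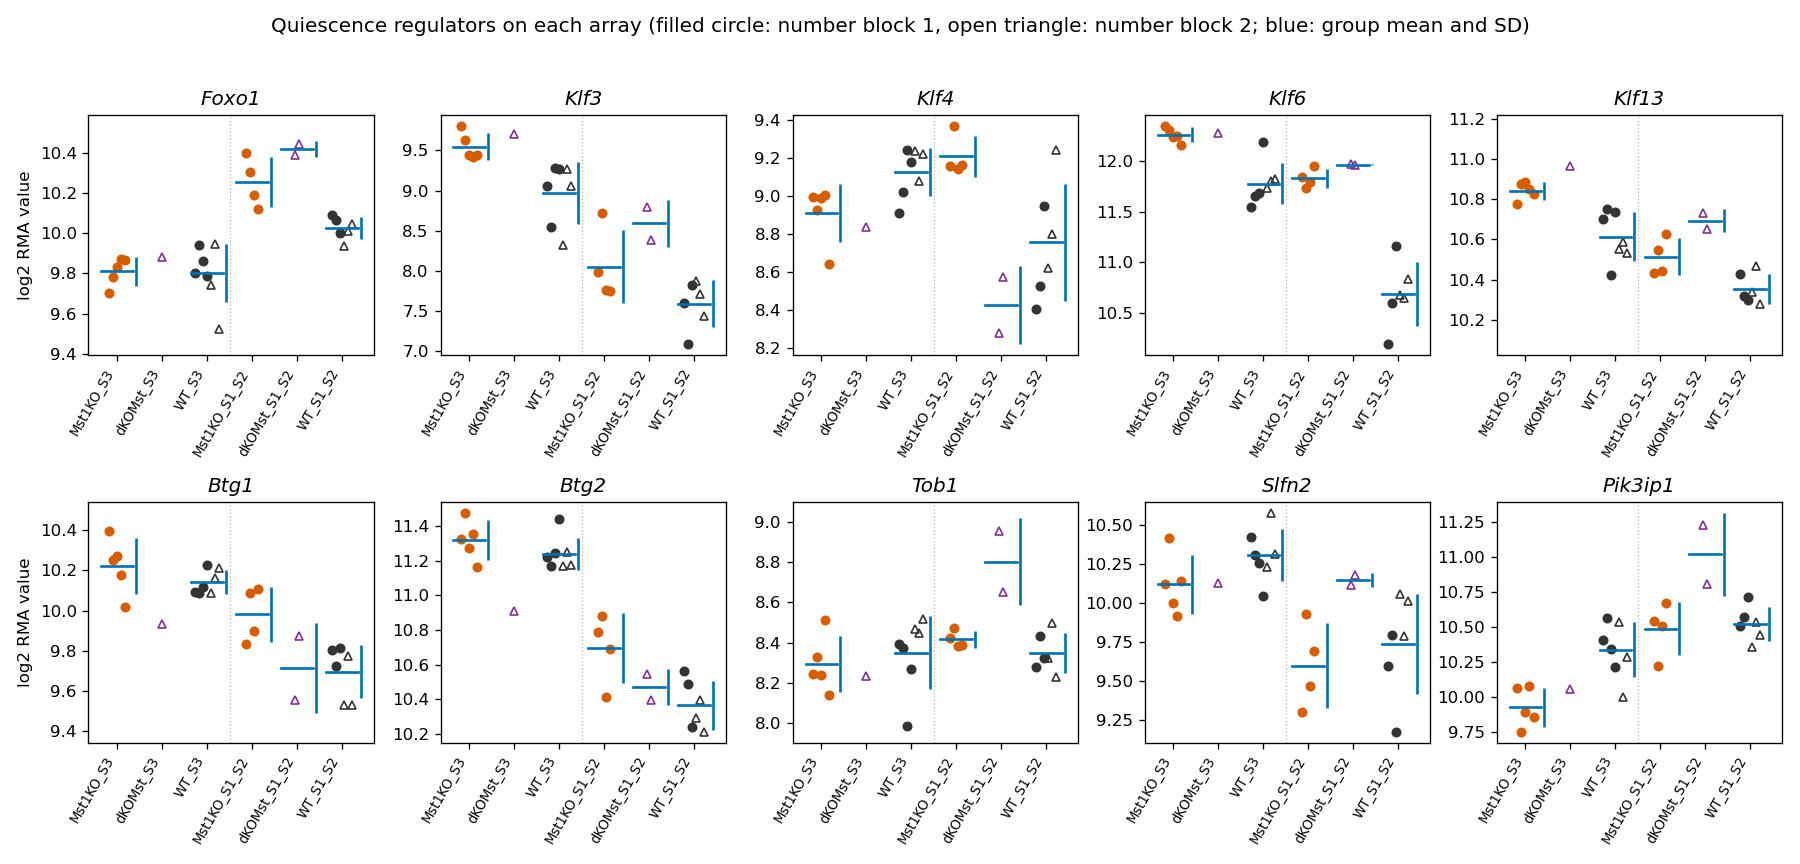
Log2 RMA value (vertical axis) of each of the 10 genes on each array, by genotype and stage, with filled circles for number block 1, open triangles for number block 2, blue horizontal lines for group means and blue vertical lines for 1 SD. Klf6 lay at 11.74 or above on every array of Mst1KO and dKOMst cells, and WT S1_S2 arrays lay between 10.19 and 11.16.

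Klf6, a Krüppel-like factor widely induced by stress and growth signals, was the gene of the 10 that separated the genotypes most clearly. In Mst1KO S1_S2 cells it read 11.84, 11.74, 11.79 and 11.95, against a range of 10.19 to 11.16 with a median of 10.66 in WT S1_S2 cells. The lowest Mst1KO array thus stood above the highest WT array. The difference was 1.16 ± 0.14 on the log2 scale (SE, n = 4 and 6), a 2.24-fold higher intensity, with a limma adjusted p of 0.000102, and it ranked 7th by p among all clusters. It was called in each of 10 fits that left out 1 array, where it ranged from 1.01 to 1.33, and in arrays with Y-linked signal alone (1.12, adjusted p = 0.0225).

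The dKOMst S1_S2 arrays read 11.97 and 11.96 for Klf6, both above every WT S1_S2 array. The difference from WT was 1.26 ± 0.17 (SE, n = 2 and 6; limma adjusted p = 0.000327), 2.39-fold on the linear scale. The call was lost when only these 8 arrays entered the fit (1.24, adjusted p = 0.0691). Set against Mst1KO S1_S2 cells, dKOMst cells differed by 0.09 with a 95% interval of −0.34 to 0.53 (limma adjusted p = 0.944), so differences of up to 0.53 were not resolved.

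At stage 3, Klf6 read 12.35, 12.30, 12.24, 12.25 and 12.16 in Mst1KO cells, against 11.55 to 12.19 with a median of 11.74 in WT cells. The groups overlapped through 1 WT array, replicate 4, at 12.19. The difference of 0.50 ± 0.13 (SE, n = 5 and 7) passed the limma test with an adjusted p of 0.0223. Of 12 fits that left out 1 array, the call was lost in the fit without WT S3 replicate 1 (0.45, adjusted p = 0.0512). It was also lost with a term for mouse sex (adjusted p = 0.05005), in arrays with Y-linked signal alone (adjusted p = 0.101) and in number block 1 alone (adjusted p = 0.0957), with estimates of 0.49 to 0.51.

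Klf6 also rose with maturation. In WT cells the stage 3 arrays lay wholly above the S1_S2 arrays, by 1.09 ± 0.11 (SE, n = 7 and 6; limma adjusted p = 1.15e-07). In Mst1KO cells the stages differed by 0.43 ± 0.14 (n = 5 and 4; adjusted p = 0.0441), again without overlap. That second call was lost in every fit that left out 1 of its 9 arrays, with adjusted p-values of 0.0565 to 0.102. The order of the 6 group means was dKOMst S3, Mst1KO S3, dKOMst S1_S2, Mst1KO S1_S2, WT S3, WT S1_S2, in which dKOMst S3 and Mst1KO S3, and likewise Mst1KO S1_S2 and WT S3, differed by less than their SD. In WT cells the S1_S2 mean of 10.69 lay 1.09 below its next neighbour in that order.

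The Mst1KO effect on Klf6 at stage 3 minus that at S1_S2 was −0.66 ± 0.18 (SE) on the log2 scale, and this test of the difference did not pass (limma adjusted p = 0.180). Without WT S1_S2 replicate 3, the WT array with the highest Klf6 of its group, the value was −0.78 with an adjusted p of 0.0199. None of the 10 genes was called for a change of the Mst1KO effect between stages, beside 0.158% of all clusters. At an unadjusted p under 0.05, 4 of the 10 genes and 2107 clusters in all would have passed.

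Because Klf6 gave the clearest genotype difference, the 250 bases before its start are shown from the RefSeq promoter table (GRCm38.p6, chr13:5861239-5861488, plus strand). Capitals mark CCAAT on either strand, a box bound by the general factor NF-Y.
Klf6: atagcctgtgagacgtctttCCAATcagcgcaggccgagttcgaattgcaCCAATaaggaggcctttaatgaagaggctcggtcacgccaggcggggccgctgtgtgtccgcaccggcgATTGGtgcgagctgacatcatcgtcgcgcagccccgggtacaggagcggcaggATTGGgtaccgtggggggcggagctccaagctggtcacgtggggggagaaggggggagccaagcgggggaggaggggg
The 4 boxes begin 230, 200, 131 and 78 bases before the start. At least 1 such box lay in 7 of the 10 promoters and in 33.8% of all 32851 promoter windows of this length. The AP-1 motif TGANTCA, searched on both strands, lay in none of the 10 and in 6.75% of all windows. The TEAD motif GGAATG, the letters bound by the partners of YAP, lay in 1 of the 10 (Slfn2) and in 12.6% of all windows. A match or its absence describes these letters only.

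Immediate early genes, the AP-1 genes Fos, Fosb and Jun among them, moved beside Klf6 in the Mst1KO arrays. Of a list of 26 immediate early and cell handling genes, 6 rose and none fell in Mst1KO S1_S2 cells against WT, with a median log2 difference of 0.23, beside −0.01 over all clusters. Fosb rose by 1.79, Jun by 1.49 and Fos by 1.40 there. Against WT S3 cells, 9 of the 26 rose and 2 fell in Mst1KO S3 cells, where 6.37% of all clusters were called. The list's mean lay between 9.88 and 10.01 on the Mst1KO S1_S2 arrays, against 9.48 to 9.69 on the WT S1_S2 arrays. Among WT S3 arrays it was highest, at 10.21, on replicate 4, the array on which Klf6 overlapped the Mst1KO values. The part of these genes, which respond to cell handling as well as to stimulation, in the Klf6 difference was not tested.

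In dKOMst S1_S2 cells, Fos differed from WT by 0.10 (adjusted p = 0.948) and Fosb by 0.14 (adjusted p = 0.946), while Jun differed by 1.05 (adjusted p = 0.0639), all by limma and all chosen here after their values were seen. Of the 26 genes, 1 rose in dKOMst S1_S2 cells, the early activation marker Cd69 (1.24, adjusted p = 0.00152), and Nr4a3, a nuclear receptor induced by antigen receptor signals, fell by 0.89. The list's mean was 9.67 and 9.78 on the dKOMst S1_S2 arrays, against the WT range ending at 9.69.

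**Figure D2:**
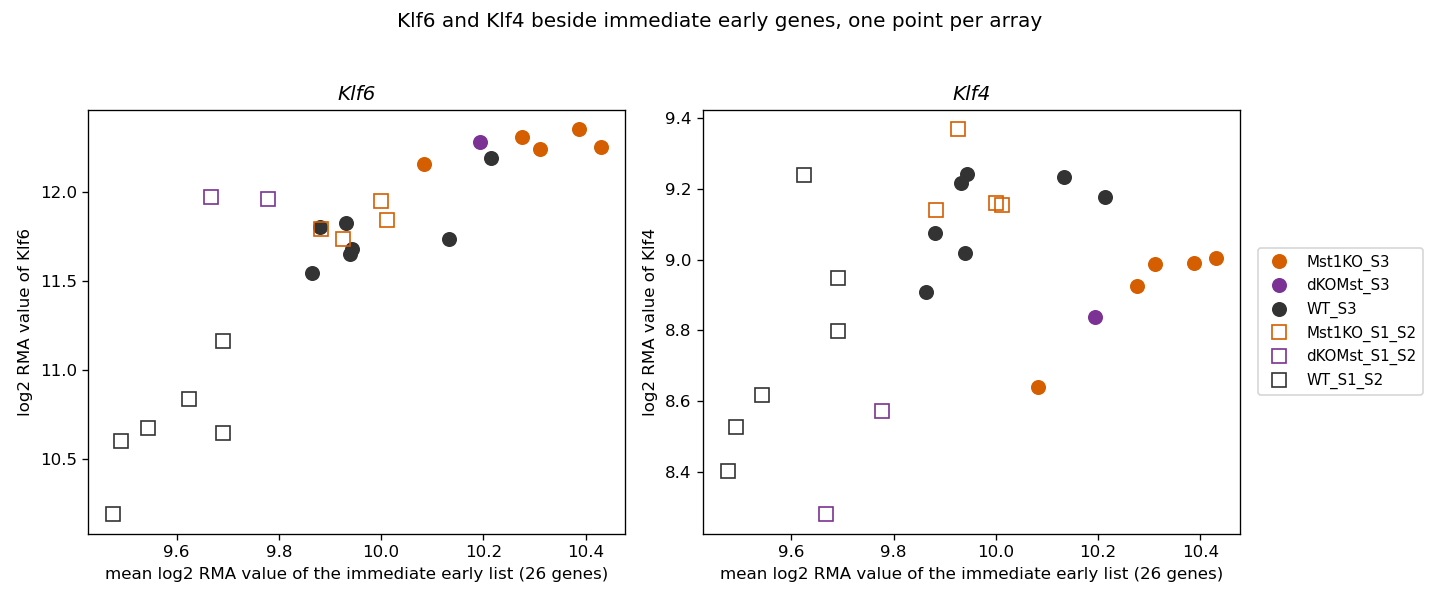
Log2 RMA value of Klf6 (left) and Klf4 (right) against the mean log2 RMA value of the 26 immediate early and cell handling genes, with 1 point per array coloured by genotype and filled for stage 3. The 2 dKOMst S1_S2 arrays sit at Klf6 values of 11.97 and 11.96 with list means of 9.67 and 9.78, with WT S1_S2 arrays at Klf6 values of 10.19 to 11.16 and list means of 9.48 to 9.69.

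Klf3, which encodes a transcriptional repressor of the family, showed the largest stage difference of the 10 genes. In WT cells it ranged from 8.32 to 9.28 (median 9.06) at stage 3, against 7.08 to 7.88 (median 7.66) at S1_S2. No stage 3 array of WT cells fell within the S1_S2 range. Klf3 rose by 1.38 ± 0.18 (SE; limma adjusted p = 2.91e-06), 2.60-fold on the linear scale. In Mst1KO cells it read 9.81, 9.62, 9.44, 9.42 and 9.45 at stage 3, against 7.98, 8.72, 7.76 and 7.75 at S1_S2, a rise of 1.49 ± 0.21 (adjusted p = 2.89e-05). Replicate 2 of the Mst1KO S1_S2 arrays stood above the other 3 of its group.

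Between genotypes Klf3 did not pass the test. Every Mst1KO S3 array lay above every WT S3 array, with a difference of 0.58 ± 0.20 (SE; adjusted p = 0.0841). With a term for mouse sex the same difference was 0.73 with an adjusted p of 0.0467. The dKOMst S1_S2 arrays read 8.80 and 8.38, both above the highest WT S1_S2 array at 7.88, and the difference of 1.00 ± 0.27 had an adjusted p of 0.0881. In Mst1KO S1_S2 cells the difference from WT was 0.46 ± 0.22 (adjusted p = 0.575), with overlapping arrays. The means followed the order dKOMst S3, Mst1KO S3, WT S3, dKOMst S1_S2, Mst1KO S1_S2, WT S1_S2, and of these neighbours dKOMst S3 and Mst1KO S3, and WT S3 and dKOMst S1_S2, lay within an SD of each other.

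Klf13, known in T cells as an activator of the chemokine gene Ccl5, rose with stage in smaller steps. The difference was 0.33 ± 0.07 in Mst1KO cells (SE; limma adjusted p = 0.00458) and 0.25 ± 0.06 in WT cells (adjusted p = 0.0046), and the WT call was lost in each number block alone (adjusted p = 0.055 and 0.290), the Mst1KO call in arrays with Y-linked signal alone (adjusted p = 0.104). Mst1KO S3 arrays read 10.78, 10.87, 10.88, 10.85 and 10.82, against 10.42 to 10.75 (median 10.59) in WT S3 cells, without overlap. The difference of 0.21 ± 0.07 (SE) did not pass over all clusters (limma adjusted p = 0.0727). It passed when only clusters above the median mean were tested (adjusted p = 0.0376) and with a trended, robust variance (adjusted p = 0.0489). On the dKOMst S1_S2 arrays Klf13 read 10.73 and 10.65, above the highest WT S1_S2 array at 10.47, by 0.36 ± 0.10 (adjusted p = 0.0774), and the same pair of settings gave adjusted p-values of 0.0340 and 0.0322.

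Klf4, which restrains the division of CD8 T cells in mice, was the 1 gene of the 10 called between dKOMst and Mst1KO cells. At S1_S2 it read 8.28 and 8.57 in dKOMst cells, against 9.16, 9.37, 9.14 and 9.16 in Mst1KO cells, so that the groups did not overlap. WT S1_S2 arrays ranged from 8.40 to 9.24 (median 8.71) and overlapped both. Klf4 fell by 0.95 ± 0.19 on the log2 scale in dKOMst against Mst1KO cells (SE, n = 2 and 4; limma adjusted p = 0.0370). These groups share no number block and are tied through the WT arrays of both blocks. The call was lost in 5 of 6 fits that left out 1 array, without any 1 of the Mst1KO arrays (adjusted p = 0.0538 to 0.0894) or without dKOMst replicate 1 (−0.80). It was also lost with a term for mouse sex (adjusted p = 0.0755) and in arrays with Y-linked signal alone (adjusted p = 0.187).

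Against WT S1_S2 cells, Klf4 differed by −0.41 ± 0.16 in dKOMst cells (adjusted p = 0.302) and by 0.54 ± 0.13 in Mst1KO cells (adjusted p = 0.0696). The Mst1KO value passed without WT S1_S2 replicate 3 (adjusted p = 0.0224) or replicate 6 (adjusted p = 0.0173), the highest Klf4 arrays of that group. At stage 3 the Mst1KO difference was −0.14 ± 0.12 (adjusted p = 0.480). The change of the Mst1KO effect with stage was −0.68 ± 0.16 and did not pass (adjusted p = 0.104), with adjusted p-values of 0.0445 without WT S1_S2 replicate 3 and 0.0343 without replicate 6. In WT cells Klf4 rose by 0.38 ± 0.10 at stage 3 (adjusted p = 0.0106), with overlapping arrays, and this call was lost in number block 2 alone (adjusted p = 0.357). In Mst1KO cells the stage difference was −0.30 ± 0.12 (adjusted p = 0.145), and all 5 stage 3 arrays lay below all 4 S1_S2 arrays.

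The other 13 KLF genes measured gave 4 rises and no fall in dKOMst S1_S2 cells against WT: Klf12 (1.45), Klf8 (1.17), Klf7 (1.15) and Klf2 (1.11). The list's median was 0.27, beside 0.01 over all clusters. Of the 13, 3 rose in Mst1KO against WT S3 cells, Klf7 by 0.73, Klf2 by 0.66 and Klf10 by 0.41, and none fell. In that comparison 6.37% of all clusters were called. None passed in Mst1KO S1_S2 cells, and the one with the smallest p was Klf11 (0.39, adjusted p = 0.238). Klf2, a target of Foxo1 that keeps the egress receptor gene S1pr1 on, differed by 0.50 there (adjusted p = 0.452).

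Btg1 and Btg2, which bind the CCR4-NOT deadenylase and hold back T cell activation in mice, both rose with stage in WT cells. Btg2 ranged from 11.17 to 11.44 (median 11.22) in WT S3 cells, against 10.21 to 10.56 (median 10.34) in WT S1_S2 cells. It rose by 0.87 ± 0.08 (SE; limma adjusted p = 1.1e-08), and Btg1 rose by 0.44 ± 0.08 (adjusted p = 0.000127). For both, no stage 3 array of WT cells reached down to an S1_S2 array. In Mst1KO cells Btg2 read 11.33, 11.48, 11.27, 11.35 and 11.17 at stage 3, against 10.79, 10.88, 10.41 and 10.69 at S1_S2, a rise of 0.63 ± 0.09 (adjusted p = 5.4e-05). Btg1 differed by 0.24 ± 0.09 between the Mst1KO stages (adjusted p = 0.0968), and its arrays overlapped.

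Neither gene passed a test between genotypes. At stage 3 the Mst1KO differences from WT were 0.05 ± 0.09 for Btg1, with a 95% interval of −0.12 to 0.23, and 0.04 ± 0.09 for Btg2, with an interval of −0.14 to 0.22. At S1_S2, Btg1 in Mst1KO cells lay above all WT arrays by 0.25 ± 0.09 (adjusted p = 0.375) and Btg2 by 0.28 ± 0.10 with overlap (adjusted p = 0.308). Across the 25 arrays, after removal of the block term, Btg1 and Btg2 had a Pearson r of 0.87, over arrays that share stage and genotype. Within groups, no pair among the 10 genes other than Klf4 and Klf6 (0.59) had a residual r beyond 0.5 in either direction.

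The promoters of Btg1 and Btg2 are shown since these related genes both rose with stage in WT cells. Both hold the CCAAT box, at 80 bases before the start in Btg1 and at 173 and 34 in Btg2, and each holds 1 further motif that the other lacks. The table's window for Btg1 (GRCm38.p6, chr10:96616751-96617000, plus strand) holds the FOXO motif TGTTTAC, in capitals, 204 bases before the start. That of Btg2 (chr1:134079156-134079405, minus strand) holds the cyclic AMP response element TGACGTCA, in capitals, 166 bases before the start.
Btg1: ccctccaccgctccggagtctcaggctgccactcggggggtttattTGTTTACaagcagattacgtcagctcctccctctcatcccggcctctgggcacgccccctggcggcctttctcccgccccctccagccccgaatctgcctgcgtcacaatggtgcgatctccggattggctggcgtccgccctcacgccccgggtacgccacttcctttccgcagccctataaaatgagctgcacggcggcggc
Btg2: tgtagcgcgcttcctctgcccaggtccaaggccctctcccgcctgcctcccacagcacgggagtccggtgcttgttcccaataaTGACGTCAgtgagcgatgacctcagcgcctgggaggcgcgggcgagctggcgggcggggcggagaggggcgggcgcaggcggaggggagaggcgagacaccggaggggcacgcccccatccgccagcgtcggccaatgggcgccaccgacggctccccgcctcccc
Each motif was searched on both strands and lay in 1 of the 10 promoters. The FOXO letters occurred in 3.17% of all windows and the response element in 1.55%. The KLF letters CACCC lay in 5 of the 10, most often in Klf3 with 5 matches, and in 52.0% of all windows.

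Tob1, the related gene whose product restrains T cell activation, did not pass any test. Between the WT stages it differed by 0.01 ± 0.08, with a 95% interval of −0.15 to 0.18. In dKOMst S1_S2 cells it read 8.96 and 8.65, above the highest WT S1_S2 array at 8.50, by 0.40 ± 0.12 (SE; limma adjusted p = 0.158). The dKOMst S1_S2 mean was the highest of the 6 groups, and the 5 means below it differed from their neighbours by less than their SD. Of the other 4 BTG and TOB genes measured, none was called in any comparison, and between WT stages the smallest p among them was that of Tob2 (0.16, adjusted p = 0.392).

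Of 13 measured subunits of the PAN and CCR4-NOT deadenylases, the second of which is the partner of BTG and TOB proteins, 3 fell at stage 3 in WT cells and none rose. They were Cnot6 (−0.40), Cnot9 (−0.23) and Cnot1 (−0.15), and the list's median was −0.14, beside 0.01 over all clusters. Of all clusters, 8.75% fell between these stages. In Mst1KO cells Cnot10 fell with stage (−0.27), and no subunit was called between genotypes.

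Foxo1, the forkhead factor that PI3K and AKT signals exclude from the nucleus, ran against the direction of most of the 10 genes between stages. In Mst1KO cells it read 9.70, 9.78, 9.83, 9.87 and 9.86 at stage 3, against 10.40, 10.31, 10.19 and 10.12 at S1_S2, without overlap. It fell by 0.45 ± 0.08 there (SE; limma adjusted p = 0.00043) and by 0.23 ± 0.07 in WT cells (adjusted p = 0.0152), where the arrays overlapped. The WT call was lost in each number block alone (adjusted p = 0.199 and 0.253).

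In dKOMst S1_S2 cells Foxo1 read 10.39 and 10.45, against 9.94 to 10.09 (median 10.03) in WT S1_S2 cells. Both dKOMst arrays stood above all WT arrays, and Foxo1 rose by 0.43 ± 0.10 (adjusted p = 0.0388). That call held in 3 of 8 fits that left out 1 array, where adjusted p-values ran from 0.0453 to 0.273. It was lost without either dKOMst array or without WT S1_S2 replicate 4, 5 or 6. Without the block term (0.39, adjusted p = 0.0509) and in number block 2 alone (0.42, adjusted p = 0.291) the call was lost too. The same held with only the groups compared (0.42, adjusted p = 0.280) and after renewed quantile normalization (0.40, adjusted p = 0.0551). In arrays with Y-linked signal alone it was also lost (adjusted p = 0.0663). In Mst1KO S1_S2 cells all 4 arrays also lay above the WT arrays, by 0.19 ± 0.08, which did not pass (adjusted p = 0.506). At stage 3 the Mst1KO difference was −0.03 ± 0.07, with a 95% interval of −0.18 to 0.13. The means of Mst1KO S3 and WT S3 cells were within an SD of each other, and the other neighbours in the order of Foxo1 means were farther apart than that.

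Of 19 measured FOXO family and target genes, 4 rose and none fell in dKOMst S1_S2 cells against WT, where 0.923% of all clusters were called. Klf2 (1.11), S1pr1 (0.97) and the pseudokinase gene Trib2 (0.72) had the largest differences of the 4. Trib2 was the 1 gene of the 19 that rose in Mst1KO S1_S2 cells, by 0.60, where 0.522% of all clusters were called. At stage 3, 2 rose and 3 fell in Mst1KO cells against WT, where 6.37% of all clusters were called. The list's median there was −0.10, beside −0.05 over all clusters. S1pr1 rose by 1.13 and Klf2 by 0.66, while the death gene Bcl2l11 fell by 0.89. The Mst1KO effect on S1pr1 was larger at stage 3 by 0.83 ± 0.17 (limma adjusted p = 0.0443). Between the WT stages 10 of the 19 rose and 3 fell, where 16.9% of all clusters were called. The list's median was 0.29, beside 0.01 over all clusters. Bcl2l11 rose by 1.20 and Txnip, which limits glucose uptake, by 0.84, while S1pr1 fell by 1.77.

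Pik3ip1, which binds and inhibits the PI3K catalytic subunit, was the gene of the 10 that fell in mature Mst1KO cells. At stage 3 it read 10.06, 9.76, 9.89, 10.08 and 9.86 in Mst1KO cells, against 10.003 to 10.57 (median 10.35) in WT cells. The overlap came from 1 WT array, replicate 6, at 10.003, and within number block 1 all Mst1KO arrays lay below all WT arrays. Pik3ip1 fell by 0.47 ± 0.11 (SE, n = 5 and 7; limma adjusted p = 0.0129), to 0.72 of the WT intensity. It was called in all 12 fits that left out 1 array, with adjusted p-values of 0.00781 to 0.0392, and was lost when only these groups entered the fit (−0.46, adjusted p = 0.0607).

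In Mst1KO cells Pik3ip1 fell with stage by 0.56 ± 0.11 (adjusted p = 0.00168), without overlap, and this call was lost in arrays with Y-linked signal alone (−0.49, adjusted p = 0.101). In WT cells the stage difference was −0.19 ± 0.09 (adjusted p = 0.195). The change of the Mst1KO effect with stage was −0.37 ± 0.15 and did not pass (adjusted p = 0.426). The dKOMst S1_S2 arrays read 11.23 and 10.81 for Pik3ip1, above the highest WT S1_S2 array at 10.72 and above every Mst1KO S1_S2 array. The differences were 0.56 ± 0.15 from WT (adjusted p = 0.0710) and 0.66 ± 0.18 from Mst1KO cells (adjusted p = 0.147). The first passed when only clusters above the median mean were tested (adjusted p = 0.0401).

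Of 19 measured PI3K, AKT and mTORC1 genes, 6 rose between WT stages and none fell, with Sgk1 (1.04), Pik3r5 (0.79) and Pik3cd (0.57) the largest. The list's median there was 0.17, beside 0.01 over all clusters, of which 16.9% were called. Between Mst1KO stages 4 rose and none fell, with Sgk1 (1.62), Pik3r5 (0.95) and Pik3cd (0.45) among them. The list's median there was 0.18, beside −0.04 over all clusters, of which 10.2% were called. Sgk1, a kinase that acts on FOXO proteins, was in Mst1KO S3 cells the only one of the 19 called against WT (0.76 ± 0.14, limma adjusted p = 0.00246). In that comparison 6.37% of all clusters were called, so 1 of 19 was near that share. Inpp4b, a phosphatase that degrades a PI3K product, fell in dKOMst S1_S2 cells by 0.70 and in Mst1KO S1_S2 cells by 0.47.

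Slfn2, whose loss in mice leaves T cells unable to stay resting, rose with stage and did not pass between genotypes. In WT cells it ranged from 10.05 to 10.58 (median 10.31) at stage 3, against 9.17 to 10.06 (median 9.79) at S1_S2, with 1 array of each stage inside the range of the other. Within each number block the WT stages did not overlap. The rise was 0.59 ± 0.12 in WT cells (SE; limma adjusted p = 0.000558) and 0.52 ± 0.14 in Mst1KO cells (adjusted p = 0.0152), and the Mst1KO call was lost without Mst1KO S1_S2 replicate 1 (adjusted p = 0.0841), S1_S2 replicate 3 (0.0574) or S3 replicate 2 (0.0508). In number block 2 alone the WT value had an adjusted p of 0.0704, and in arrays with Y-linked signal alone the Mst1KO value had one of 0.0931. The Mst1KO differences from WT were −0.08 at stage 3 (95% interval −0.35 to 0.19) and −0.01 at S1_S2 (−0.31 to 0.29). On the dKOMst S1_S2 arrays Slfn2 read 10.12 and 10.18, above the highest WT S1_S2 array at 10.06. That difference was 0.28 (95% interval −0.09 to 0.65, limma adjusted p = 0.650). Of the 7 other Schlafen genes, Slfn8 rose (0.67) and Slfn3 (−0.68) and Slfn5 (−0.34) fell between WT stages, and none was called between genotypes. Between WT stages 16.9% of all clusters were called.

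The single dKOMst S3 array allowed a description only, set against the 3 WT S3 arrays of its number block. Klf3 (9.70, against 8.32 to 9.27), Klf6 (12.28, against 11.74 to 11.83) and Klf13 (10.96, against 10.53 to 10.59) stood above the WT range. The array lay 0.82, 0.49 and 0.41 above the WT means of these genes. Klf4 (8.84, against 9.08 to 9.23), Btg1 (9.93, against 10.09 to 10.21) and Btg2 (10.91, against 11.17 to 11.25) stood below it. Tob1 (8.23, against 8.45 to 8.52) and Slfn2 (10.13, against 10.23 to 10.58) stood below it as well, but within the range of all 7 WT S3 arrays (Tob1 7.98 to 8.52, Slfn2 10.05 to 10.58). The other 6 genes named here stood outside the range of all 7 arrays too. The differences from the WT means were −0.34 for Klf4, −0.22 for Btg1, −0.29 for Btg2, −0.25 for Tob1 and −0.25 for Slfn2. Foxo1 and Pik3ip1 lay within the WT range. On the same array the division gene Mki67 read 10.77, against 9.25 to 9.45 on those 3 WT arrays. The summed log2 level of 4 NK cell markers was 10.89, against 10.07 to 10.60 on all 7 WT S3 arrays. That of 6 myeloid markers, 8.91, lay below its WT S3 range of 9.03 to 9.36. The part of dividing or other cells in these differences was not tested.

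2 further lists describe the cells in which these levels were read. Of 24 measured cell division genes, all 24 fell at stage 3 in WT cells, with a median of −1.74, and 19 fell in Mst1KO cells, with a median of −1.13. In Mst1KO S3 cells 14 of the 24 rose against WT and none fell, Mki67 by 1.42 ± 0.13 (limma adjusted p = 1.36e-06). Mki67 read 9.89 to 10.45 in Mst1KO S3 cells, against 8.36 to 9.45 in WT S3 cells, and was thus higher on the same arrays on which Klf6 was higher and Pik3ip1 lower than WT. None of the 24 was called in S1_S2 cells of either genotype. The part of dividing cells in the stage 3 differences of Klf6 and Pik3ip1 was not tested.

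Of 20 other genes tied to T cell resting state, 7 rose and 5 fell between WT stages, where 16.9% of all clusters were called. The list's median was −0.07, beside 0.01 over all clusters. The leucine zipper gene Tsc22d3 rose by 3.10 and the mRNA decay factor gene Zfp36l2 by 1.08, while Lef1, a factor of early T cells, fell by 0.97. In mature Mst1KO cells 3 rose and 1 fell against WT, where 6.37% of all clusters were called. Rb1, the retinoblastoma gene, rose by 0.52 and Dgka by 0.34, and Satb1, a chromatin organiser, fell by 0.35. Of the 20, 2 rose in dKOMst against WT S1_S2 cells, where 0.923% of all clusters were called. Tsc22d3 rose by 1.39 and Dgka, a diacylglycerol kinase that damps T cell receptor signals, by 0.49. None was called in Mst1KO S1_S2 cells.

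Genes listed here as markers of other cells moved with these comparisons. Whether the iNKT cells themselves carried these RNAs was not tested. Of 2 gamma-delta T cell markers, both above the negative control median on every array, Cd163l1 rose by 0.77 and Sox13 fell by 0.67 in Mst1KO against WT S1_S2 cells, the comparison in which Klf6 rose by 1.16. Their summed level on the log2 scale was 10.15 to 10.38 in Mst1KO S1_S2 cells, against 9.78 to 10.06 in WT S1_S2 cells. Cd163l1 also rose by 0.82 in Mst1KO against WT S3 cells. Sox13 was not called there, and its mean was lower in Mst1KO than in WT S3 cells (8.06 against 8.38). The summed level of both markers was 9.46 to 9.88 in Mst1KO S3 cells, against 9.17 to 9.52 in WT S3 cells.

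Of 4 NK cell markers, 2 were called higher in dKOMst than in WT S1_S2 cells. The summed level of all 4 was 9.29 to 9.50 in dKOMst cells, against 7.81 to 8.34 in WT. Fcer1g rose by 2.06 against WT and by 1.96 against Mst1KO S1_S2 cells, and was above the negative control median on 2 of 2 dKOMst, 1 of 4 Mst1KO and 4 of 6 WT arrays of that stage. Eomes was above the negative control median on 2 of 2 dKOMst and on 0 of 6 WT S1_S2 arrays, and Ncr1, the defining NK receptor gene, on none of the S1_S2 arrays. In stage 3 cells Tyrobp rose by 0.74 in Mst1KO against WT. Eomes was called higher there and was above the negative control median on 3 of 5 Mst1KO and 1 of 7 WT S3 arrays, while Ncr1 was called lower and was above it on 0 of 5 Mst1KO and 4 of 7 WT S3 arrays. No size is given for Eomes and Ncr1, which were read largely at background. The sizes for Fcer1g are set against Mst1KO and WT S1_S2 means of 6.43 and 6.37, partly at background, and depend on that floor.

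Of 6 myeloid markers, 2 were called higher in dKOMst than in WT S1_S2 cells, Itgam and Lyz2. Itgam rose by 0.93 from a WT mean of 6.52, near background, and that size depends on the floor. Lyz2 was above the negative control median on 2 of 2 dKOMst and 2 of 6 WT arrays. Adgre1 was above it on every array of both groups and was not called, with a lower mean in dKOMst than in WT cells (6.55 against 6.81). The summed level of all 6 markers was 9.18 to 9.32 in dKOMst S1_S2 cells, against 8.77 to 9.20 in WT S1_S2 cells. Much of that sum was background. Of the 6, 3 were above the negative control median on every dKOMst S1_S2 array and 1 on every WT S1_S2 array. Cd8b1 rose in Mst1KO S3 cells by 0.73, the only one of 5 double-positive thymocyte markers called there. The summed level of all 5 was 10.07 to 10.44 in Mst1KO S3 cells, against 9.45 to 9.99 in WT S3 cells. Rag2 was above the negative control median on 1 of 5 Mst1KO S3 arrays and on no WT S3 array.

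Between stages, Tyrobp rose by 2.51 in Mst1KO cells and by 1.86 in WT cells, and Fcer1g by 2.73 and 3.12, in cells sorted as NK1.1-positive at stage 3. For Fcer1g the S1_S2 arrays lay partly at background. Cd163l1 fell by 0.93 in Mst1KO and by 0.98 in WT cells, while Sox13 was called in neither. The Sox13 means were 8.06 at stage 3 and 7.86 at S1_S2 in Mst1KO cells, and 8.38 and 8.50 in WT cells. Lyz2 was called higher at stage 3 in both genotypes, and was above the negative control median on 5 of 5 Mst1KO S3 and 1 of 4 Mst1KO S1_S2 arrays, and on 7 of 7 WT S3 and 2 of 6 WT S1_S2 arrays. Dntt, a thymocyte gene, was also called higher at stage 3 in both genotypes, and was above that median on 5 of 5 Mst1KO S3 and 2 of 4 Mst1KO S1_S2 arrays, and on 5 of 7 WT S3 and 0 of 6 WT S1_S2 arrays. Ncr1 was called higher at stage 3 in WT cells, and Cd8a rose by 0.67 with stage in Mst1KO cells. Dntt and Cd8a were the 2 of 5 thymocyte markers called between Mst1KO stages, and the mean of Ptcra was lower at stage 3 (8.09 against 8.32). Epcam was the only one of 5 thymic epithelium markers called there, as higher at stage 3. It was above the negative control median on 3 of 4 Mst1KO S1_S2 arrays, so no size is given. The mean of Krt5, another of the 5, was lower at stage 3 (6.47 against 6.78). The part of these markers in the differences of the 10 genes was not tested.

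The genes most like each of the 10 were read from Pearson correlations over the 25 arrays, as descriptions of arrays that share stage and genotype. After removal of the block term, Klf6 levels were most like those of Cd69 (0.95), Rhob (0.94) and Pim1 (0.94), and Btg2 levels most like Fam117a (0.96), Gem (0.94) and Btbd11 (0.94). Klf3 was most like Ms4a4b (0.93) and Sgk1 (0.93), and Klf13 most like Klf7 (0.91). After removal of group means as well, which leaves the spread among replicates, Klf6 was most like Fosb (0.89) and Jun (0.88), and Fos stood among the 3 genes most like Klf4 (0.75). For Tob1 the closest levels, those of Mknk2, reached 0.74.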

How the data were processed

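RNA of sorted thymic iNKT cells was amplified with the NuGEN WTA Pico v2 kit and hybridised to 25 Clariom S arrays, per the labels' protocols. The deposited values are log2 intensities summarised by RMA in Expression Console 1.1, per the submitters' processing notes. For the genome build, nothing is stated in these sources. RMA includes quantile normalization, which draws the arrays to 1 distribution, so a shift shared by most genes would not be seen.

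From these values, 6640 control items were left out and 22206 clusters tested, without a further filter on dim clusters, in limma 3.58.1 (R 4.3.3). The fit (lmFit and eBayes) had the 6 group means and an additive term for the number block, read from the order of the title numbers, with 18 residual degrees of freedom. P-values were adjusted by Benjamini-Hochberg over all clusters, and calls were made at 0.05. Groups came from the labels, and replicates were numbered in accession order. The labels do not name a batch. The single dKOMst S3 array entered the fit and was not tested.

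The 10 genes and all other gene lists were chosen with earlier results of these data known. Beyond the 10 genes, the text names up to 3 called genes of each list by size of difference, or, without a call, the gene of smallest p, and the 3 genes of highest correlation. Fos, Fosb and Jun in dKOMst cells, Klf2 in Mst1KO S1_S2 cells and the marker values fall outside that rule and were chosen after their values were seen. Promoters came from the RefSeq table (GRCm38.p6), in which all 10 genes matched by symbol. Alternatives were the block term left out, random or split, only the groups compared, renewed quantile normalization, a filter on dim clusters, a trended and robust variance, a sex term, arrays with Y-linked signal alone and each array left out. The code was tested on simulated data with known changes.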

Additional observations from a re-analysis of the deposited data

Results flagged for a closer look

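In 40 gene and group combinations of 4 to 7 arrays, 3 arrays lay far from the rest of their group, where chance gives about 5% of such groups. Klf4 was lowest on Mst1KO S3 replicate 5, at 8.64, against 8.93 to 9.01 on the other 4 arrays, a gap that made up 0.780 of the group's range. Klf4 was highest on Mst1KO S1_S2 replicate 2, at 9.37, against 9.14 to 9.16 on the other 3, with a gap of 0.920 of the range. Btg2 was highest on WT S3 replicate 4, at 11.44, against 11.17 to 11.25 on the other 6, with a gap of 0.709 of the range. The difference of Klf4 between dKOMst and Mst1KO cells at S1_S2, −0.95 on the log2 scale, is listed because it passed a direct test (limma adjusted p = 0.0370). That call was lost in 5 of 6 fits that left out 1 array, with the sex term and in arrays with Y-linked signal alone.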

How the results depend on the processing

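Of 1420 values of the 10 genes under other settings, 1359 kept their side of the threshold, 48 lost a call and 13 gained one. No called value changed sign, while uncalled values near 0, such as those of Tob1, did in part. The cause of the changed calls was not tested. No paired analysis was possible because the labels carry no shared replicate numbers. The number of arrays, 2 in dKOMst S1_S2 and 1 in dKOMst S3, limits the precision, and the dKOMst to Mst1KO comparison was not run with 1 number block or only its own groups, where the block could not be estimated. No symbol had a second cluster to try.

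Shares of all 22206 clusters called changed by more than 1.5 times as follows, with the value of the fit in the report in brackets. Between WT stages (16.9%), 8.65% were called in number block 1 alone and 8.57% in block 2 alone, where 4 of the 10 genes were called. Between Mst1KO stages (10.2%), arrays with Y-linked signal alone gave 4.29% and 3 of the genes. For Mst1KO against WT at S1_S2 (0.522%), block 1 alone gave 0.288%, only the groups compared 0.252%, the sex term 0.311% and Y-signal arrays 0.104%, and 2 of the genes were called among clusters above the median mean. For Mst1KO against WT at S3 (6.37%), the share was 3.29% without the block term, 3.86% with it random, 3.06% in block 1, 2.26% with only the groups compared and 2.14% in Y-signal arrays, and in these last 3 settings 1 of the genes was called. For the change of the Mst1KO effect with stage (0.158%), it was 0.0766% without the block term, 0.045% in block 1, 0.104% with only the groups compared, 0.104% with the sex term and 0 in Y-signal arrays by limma. For dKOMst against WT at S1_S2 (0.923%), it was 0.306% in block 2, 0.27% with only the groups compared and 1.54% with a trended, robust variance. There 1 of the genes was called without the block term, in block 2, after renewed quantile normalization and in Y-signal arrays, 0 with only the groups compared, and 4 with the filter on dim clusters or the trended variance. For dKOMst against Mst1KO at S1_S2 (0.171%), it was 0.878% without the block term, 0.365% with it random, 0.27% with the trended variance and 0.0315% in Y-signal arrays, and 0 of the 10 genes were called with the sex term or in Y-signal arrays.

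With 1 array left out, these shares and the number of the 10 genes called ranged from 15.1% to 16.9% and 8 to 8 between WT stages, 7.52% to 9.63% and 5 to 6 between Mst1KO stages, 0.297% to 0.784% and 1 to 2 for Mst1KO at S1_S2, 3.53% to 6.3% and 1 to 2 for Mst1KO at S3, 0.063% to 0.275% and 0 to 2 for the change with stage, 0.149% to 1.04% and 1 to 2 for dKOMst against WT, and 0.018% to 0.234% and 0 to 1 for dKOMst against Mst1KO. The shares fell most without dKOMst S1_S2 replicate 1 in both dKOMst comparisons, and that of Mst1KO at S3 fell to 3.92% without Mst1KO S3 replicate 2 and to 3.53% without replicate 5. Against all 7 WT S3 arrays, the dKOMst S3 array differed by 0.35 for Klf13 and −0.12 for Tob1.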
